A study of Danio rerio with 9 samples.

Results

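Larvae given tacrine and then neomycin were compared with vehicle-treated control larvae, with 3 arrays in each group, so that 6 of the 9 arrays of the series were compared. The 3 arrays with neomycin alone entered the fit only through the shared estimate of the spread. The groups were taken from the sample labels alone. RNA of whole zebrafish larvae (Danio rerio) at 5 days post fertilization was hybridised to Agilent arrays in 1 colour, with Cy3 as the dye and an array for each sample. Larvae of the tacrine plus neomycin group were kept in 50 µM tacrine for 1 h and then in 200 µM neomycin for 1 h. Larvae of the neomycin group were kept in 1% DMSO for 1 h and then in 200 µM neomycin for 1 h, and control larvae in 1% DMSO for 1 h and then in vehicle for 1 h. No DMSO level is stated for larvae given tacrine, and larvae given only tacrine are not among the labelled groups. An action of tacrine by itself cannot be told apart here from its action with neomycin or from that of unequal DMSO. The labels state 3 independent experiments per group, and the p-values measure the spread between these samples. Strain and the number of larvae per sample are not given in the sources used here.

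Tacrine is an inhibitor of acetylcholinesterase, the enzyme that ends transmission at cholinergic synapses, and was once a drug against Alzheimer's disease with known liver toxicity. Neomycin is an aminoglycoside antibiotic that enters and kills hair cells, the mechanical receptors of the ear and of the lateral line, where larval zebrafish carry them at the body surface. Hair cells are a very small share of a whole larva. Within a short time of a stress, vertebrate cells switch on immediate early genes, whose transcription needs no new protein, followed by cytokine feedback inhibitors, chaperones and hormone targets. Falls within the same time depend on how fast an existing transcript is degraded.

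A level below is the log2 of the processed signal minus the 75th percentile of that array, so that 0 stands for that percentile, and a difference is the mean level with both compounds minus the mean level in controls. Before this scaling the 75th percentile of the signal was 226, 151 and 174 on the arrays of larvae given both compounds, 170, 142 and 163 with neomycin, and 115, 105 and 137 in controls. The share of probes well above background was between 69.7% and 73.8% with both compounds and between 65.6% and 69.2% in controls. The arrays thus differed in brightness with the groups, and the part of this in the results was not tested. Each of 3 slides held 1 array of each group, and the slide ran with the replicate number. Each group kept 1 place on the slide, so place and group cannot be told apart.

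Of 31671 probes tested, 1875 (5.92%) were called at an adjusted p under 0.05, of which 1003 (3.17% of those tested) were higher and 872 (2.75%) lower in larvae given both compounds. The higher probes stood for 504 named genes and the lower ones for 449, and no gene had calls in both directions. A further 297 higher and 330 lower probes had no gene symbol. The 2 groups did not overlap at any called probe, from which the same sign on all 3 slides follows. Groups that did not overlap were found at 28.8% of all probes tested and at 29.9% of genes by their brightest probe. Rises were larger than falls: 606 probes were at least 2-fold higher and 372 at least 2-fold lower, and 139 were at least 4-fold higher against 42 at least 4-fold lower. The median difference was 1.1 over the higher probes and -0.93 over the lower ones. Falling probes were dimmer, with a median mean level of -2.03, against -1.07 for rising probes and -1.33 for all those tested.

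**Figure D1:**
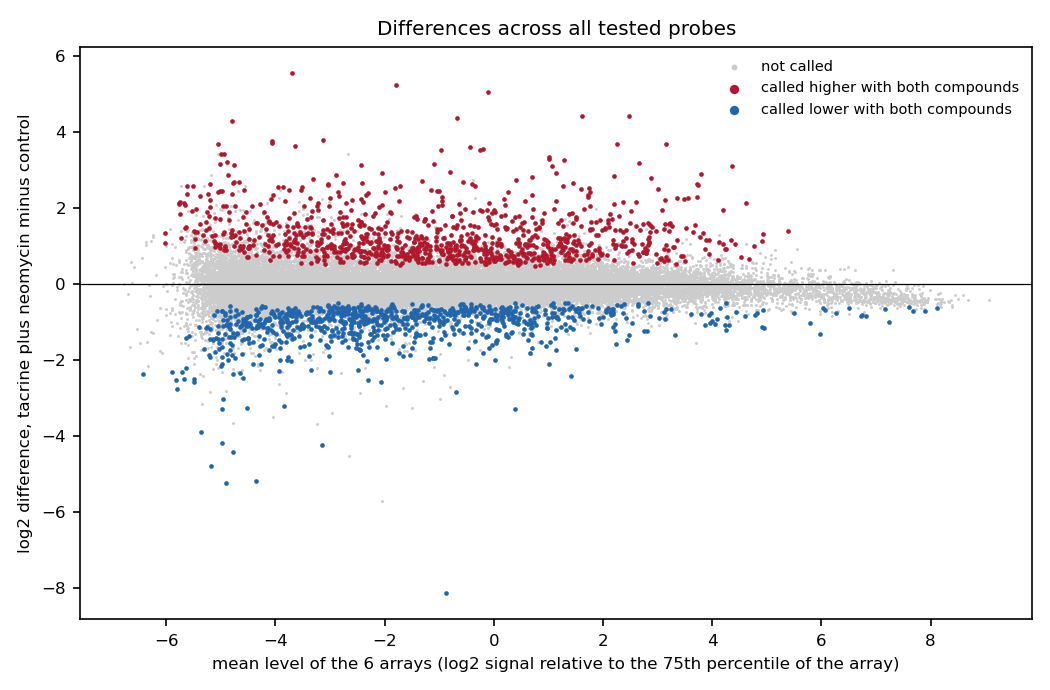
Each point is 1 of the 31671 probes tested, with its mean level over the 6 arrays (log2 signal relative to the 75th percentile) on the x axis and the log2 difference, tacrine plus neomycin minus control, on the y axis. Red points are the 1003 probes called higher and blue points the 872 called lower. The falls reach -8.12 but most stay above -2, whereas rises beyond 2 are found at every level up to about 4.

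The balance of rises and falls depended on the scaling. Rises made up 53.5% of the calls, 66.6% when the arrays were scaled to their medians (1126 higher, 564 lower), and 65.1% with normexp background correction and quantile normalization (715 higher, 384 lower). With normexp correction and 75th percentile scaling 59 probes were higher and 0 lower, and the median difference over all probes moved to -0.41 against -0.05 in the scaling reported here. In that setting 40 of the 197 called probes of named genes changed sign, among them those of ctrb.2, cel.2, c6ast4, sesn1, sesn3 and pvalb8 below, and 137 kept their sign but were not called. Leaving out any array with both compounds or any control array left between 455 and 672 higher and between 294 and 479 lower calls, and leaving out neomycin replicate 3 left 797 higher and 562 lower. Counted by gene with its brightest probe, 641 of 11326 genes (5.66%) were called, 382 of them higher (3.37%) and 259 lower (2.29%), and the counts of gene lists below are to be read against these shares.

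Both zebrafish leptins, cytokine-like hormones that act through the JAK-STAT pathway, rose with both compounds. Leptin a (lepa) lay at 1.1, 0.65 and 0.73 with both compounds, at -3.52, -4.64 and -4.30 with neomycin and at -4.29, -4.62 and -4.37 in controls, a difference of 5.25 ± 0.27 (SE, 38.1-fold, adjusted p = 4.4e-05). Its probe was well above background on 2 of 3 controls. All 3 arrays with both compounds stood far above the other 6, and the neomycin and control arrays overlapped. Leptin b (lepb) lay at -0.46, -1.16 and -1.1 with both compounds, at -4.39, -5.94 and -7.32 with neomycin and at -6.72, -5.69 and -7.0 in controls. Its probe was not well above background in any control, so its rise is given as a bound of at least 14.4-fold (adjusted p = 0.0021). Of the feedback inhibitors of JAK-STAT signalling, socs3a lay at 5.14, 4.85 and 5.05 with both compounds, at 2.65, 2.47 and 2.11 with neomycin and at 1.31, 1.4 and 1.21 in controls (difference 3.71, 13.1-fold). Its 3 groups did not overlap, and neomycin arrays stood between the others. All 4 probes of socs3b rose, the strongest by 2.97. Among 9 tested genes of the SOCS and CISH family, which was put together after its values were seen, 4 were called higher (socs1a, socs3a, socs3b and cisha) and socs5b, well above background on 1 array with both compounds and 2 controls, lower by 1.43.

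Immediate early genes made up the list with the largest share of rises. Of 49 tested, 29 (59.2%) were called higher and none lower, against 3.37% and 2.29% of all genes, and their median difference was 1.08, against -0.05 over all genes. The median was 1.11, 1.08 and 1.17 on the 3 slides, and the count lay between 22 and 27 with single arrays left out. The AP-1 family led. The brightest probe of fosab, the zebrafish c-Fos, lay at 4.66, 4.50 and 4.90 with both compounds, at 2.58, 3.01 and 2.36 with neomycin and at 0.37, -0.02 and 0.43 in controls, and all 5 of its probes rose, the one with the smallest p by 4.42 ± 0.19 (21.4-fold). Each group of fosab stood apart from the other 2, with neomycin between. The other tested members of its family also rose: fosl1a, not well above background in any control, by at least 2.97-fold and fosl2 by 2.06, and so did all 5 tested members of the JUN and JDP2 family, with jdp2b at 3.29, junbb at 2.61, junba at 1.69, jun at 1.42 and jund, not well above background in any control, at least 1.12-fold higher. Of other early transcription factors, egr3 lay at 3.06, 2.19 and 2.60 with both compounds, at 1.99, 2.13 and 1.71 with neomycin and at -0.36, -0.60 and -0.54 in controls. Here the neomycin arrays lay close below those with both compounds. The stress factor atf3 rose by 2.67, mycb by 1.89 and the neuronal activity gene npas4a by 1.80. For nr4a3, an orphan nuclear receptor, 1 of 2 probes rose (by at least 2.91-fold), whereas its brighter probe differed by 0.25.

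**Figure D2:**
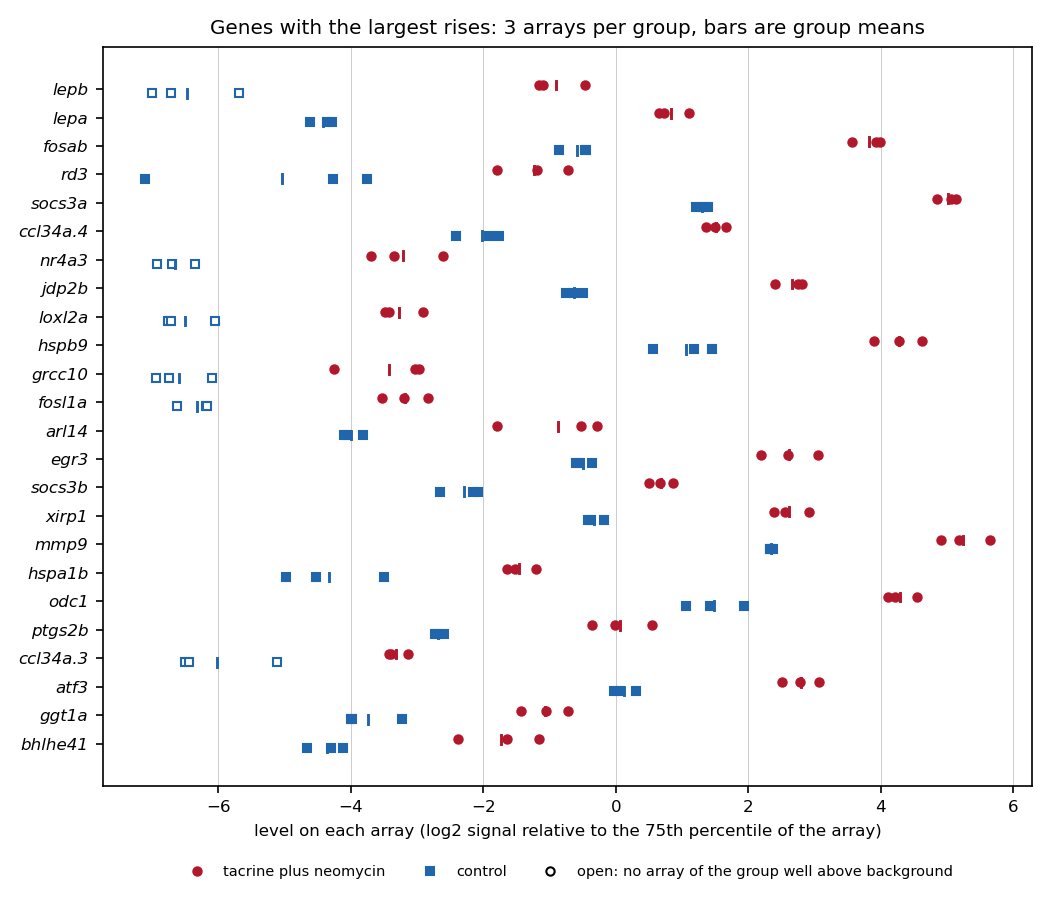
Named genes with the largest rises (24 of the 25), with the level on each array (log2 signal relative to the 75th percentile) on the x axis and short bars for the group means. Red circles are larvae given both compounds and blue squares controls. The groups stand apart for all 24 genes, as the rule of choice required. Of these, lepb, nr4a3, loxl2a, grcc10, fosl1a and ccl34a.3 were not well above background in any control.

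Genes that limit growth and MAP kinase signalling were among those called higher, as were some that promote them. Of 78 tested KLF, GADD45, BTG, CCN and TGF-beta early genes, 20 were higher and none lower by their brightest probe (median 0.32). A lower call at another probe was found for klf7a. The gene btg2 is also counted in the immediate early list. The antiproliferative gene btg2 lay at 4.6, 4.71 and 4.50 with both compounds, at 3.09, 2.85 and 2.99 with neomycin and at 2.4, 2.23 and 2.44 in controls (4.74-fold, adjusted p = 0.00011). Its 3 groups did not overlap and its replicates differed little. The growth arrest genes gadd45ba and gadd45bb rose by 1.59 and 1.89, the kinase gene pim1 by 1.62 and the zinc finger factor klf6a by 1.48. The growth factor genes hbegfa and hbegfb each rose by 1.2. Of 47 DUSP phosphatases and MAP kinases, 7 were higher and 1 lower. The higher ones included the kinase genes mapkapk3 (by 0.67) and map3k21, which was well above background on 1 array with both compounds and on no control. The ERK phosphatase dusp5 rose 5.39-fold, and dusp1, dusp2 and dusp6 by 1.43, 1.08 and 0.61, whereas dusp29, the counterpart of a muscle phosphatase of mammals, fell by 0.92. The higher calls of this list numbered 3 without tacrine plus neomycin replicate 1 or 3 or control replicate 3, and 4 without control replicate 2.

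Of 43 tested inflammatory genes, 14 were higher and 1, the chemokine gene cxcl20, was lower (median 0.40, and 0.95, 0.19 and 0.48 on the 3 slides). The higher ones include lepa, lepb, socs3a and socs3b, already given above, so this count is not separate from those rises. Matrix metalloproteinase 9 (mmp9), which degrades collagen during inflammation and tissue repair, lay at 5.64, 4.91 and 5.18 with both compounds, at 3.86, 3.75 and 3.58 with neomycin and at 2.32, 2.33 and 2.37 in controls, a difference of 2.90 ± 0.19. Both cyclooxygenase 2 genes, whose enzymes make prostaglandin precursors, rose (ptgs2a by 1.90 and ptgs2b by 2.52 at its brightest probe). For ptgs2b the neomycin and combined groups overlapped, with levels of 0.55, -0.37 and -0.01 with both compounds, -0.21, -0.24 and -0.84 with neomycin and -2.73, -2.71 and -2.60 in controls at its probe with the smallest p. The chemokine genes ccl34a.4 (by 3.54) and cxcl18b (by 2.3) rose as well, as did the NF-kappa-B inhibitor nfkbiaa (1.54), stat3 (1.2) and the receptor gene il13ra1 (1.69). Interleukin 1 beta (il1b) had levels of -3.28, -4.52 and -4.33 with both compounds, -3.81, -4.27 and -5.33 with neomycin and -6.11, -5.26 and -7.03 in controls, which was not called (adjusted p = 0.054, and 0.032 with the slide as a block).

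Targets of glucocorticoids, the steroid hormones of the stress axis, and heat shock genes rose in smaller shares. Of 36 glucocorticoid targets 9 were higher and none lower, with a median of 0.32 (0.13, 0.38 and 0.40 by slide). Of these, socs3a, dusp1, per1b and nfkbiaa also belong to the immediate early or inflammatory list. The insulin-like growth factor binding protein gene igfbp1a lay at 4.94, 4.74 and 4.95 with both compounds, at 4.97, 4.51 and 4.1 with neomycin and at 2.58, 2.57 and 2.58 in controls. The neomycin arrays overlapped those with both compounds, and all 6 were above the controls. The factors cebpb and cebpd rose by 2.14 and 1.39 and the kinase genes sgk1 and sgk2b by 1.05 and 1.53. Of 33 clock genes 4 rose (2 without tacrine plus neomycin replicate 1 or 3), led by the repressor gene bhlhe41, which lay at -2.38, -1.64 and -1.16 with both compounds, at -4.62, -4.79 and -4.72 with neomycin and at -4.30, -4.11 and -4.66 in controls. Its neomycin and control arrays overlapped.

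Of 39 chaperone genes 7 were higher and none lower (median 0.35, and 0.32, 0.16 and 0.31 by slide). With tacrine plus neomycin replicate 1 or 3 left out 3 were higher, with its replicate 2 or control replicate 1 left out 4, and with array weights 12. The small heat shock protein gene hspb9 lay at 3.90, 4.28 and 4.62 with both compounds, at 1.07, 0.66 and 1.09 with neomycin and at 1.46, 1.18 and 0.56 in controls, a difference of 3.2 ± 0.27 (9.21-fold, adjusted p = 0.0005). Its neomycin and control arrays overlapped. The same held for bag3, a co-chaperone that directs damaged proteins to autophagy, with 3.0, 2.59 and 2.98 with both compounds, -0.25, -0.37 and 0.56 with neomycin and 0.57, 0.47 and 0.01 in controls. The Hsp70 gene hspa1b, well above background on 1 of 3 controls, rose by 2.87, hspa4a by 0.95, hsp90aa1.1 by 1.11 and the mitochondrial chaperonin gene hspd1 by 0.72. The inducible gene hsp70l differed by 0.49, with levels of 1.62, 1.70 and 1.93 with both compounds and 0.93, 0.45 and 2.39 in controls, where control replicate 3 exceeded every array with both compounds (adjusted p = 0.53). The antioxidant gene hmox1a differed by 0.00 (adjusted p = 1.0), and of 37 oxidative stress genes mafk rose, by 1.96, and nfe2l1a fell, by 0.87.

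Besides genes that make ribosomal RNA and assemble ribosomes, the list of ribosome biogenesis and RNA polymerase I and III genes holds MYC transcription factors. Of its 95 tested genes 8 were higher and none lower, but 81 had positive differences. The median was 0.36 (0.39, 0.23 and 0.47 by slide). Those called were the MYC genes mycb, myca and mycn together with ppan (by 1.02), dhx37, ddx47, wdr75 and riok2. The count was 26 with array weights, 13 with the slide as a block or without neomycin replicate 1, 3 without tacrine plus neomycin replicate 1 or 3, and 4 without any 1 control. The polyamine gene odc1, whose enzyme makes putrescine, rose at all 4 probes, and its levels at the strongest were 4.54, 4.21 and 4.1 with both compounds, 1.84, 2.28 and 1.75 with neomycin and 1.06, 1.94 and 1.43 in controls (7.0-fold). Of 37 lipid and sterol genes 7 were higher and 4 lower. Cholesterol synthesis genes were among the higher ones: hmgcra, for the rate-limiting reductase, lay at 0.07, -0.72 and -0.13 with both compounds, at -1.45, -1.76 and -1.03 with neomycin and at -1.86, -1.62 and -1.65 in controls, and hmgcs1, hmgcrb, sqlea and nsdhl rose by 1.03, 0.87, 1.64 and 0.73. Those that fell were dgat2, for the last step of triglyceride synthesis (by 1.26), and the desaturase gene scdb (0.79). Also lower were tm7sf2 (0.79), itself a gene of cholesterol synthesis, and insig2 (0.69), whose product holds back sterol synthesis. Higher calls in this list numbered 1 when tacrine plus neomycin replicate 1 or 3 was left out, between 2 and 4 without any 1 control and 0 without slide 1. Lower calls numbered 0 without tacrine plus neomycin replicate 1 or control replicate 2, 1 without tacrine plus neomycin replicate 2 or 3, and 2 without control replicate 1 or 3.

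Single genes of muscle, matrix and transport rose. The actin-binding muscle gene xirp1 lay at 2.38, 2.55 and 2.91 with both compounds, at -1.01, -0.13 and -0.34 with neomycin and at -0.18, -0.38 and -0.42 in controls (7.66-fold), and myod1, the factor that commits cells to muscle, rose by 1.5. Of 72 contractile genes these and myh6 were the 3 higher ones, and the list's median was -0.23. The collagen cross-linking enzyme gene loxl2a rose at both probes (by at least 2.79-fold at the dimmer and 1.56 at the brighter) and timp2b by 2.17. Of 221 solute carriers 14 were higher and 3 lower, and the higher calls numbered 8 or 9 without any 1 array with both compounds and 9 without control replicate 1 or 2, while there was 1 lower call without tacrine plus neomycin replicate 2 or 3 or control replicate 2 or 3. The monocarboxylate carrier gene slc16a9b lay at 2.80, 2.42 and 1.88 with both compounds, at -0.07, -0.03 and -0.03 with neomycin and at 0.57, 0.48 and 0.41 in controls, and the mitochondrial ATP-Mg/phosphate carrier genes slc25a25a and slc25a25b rose by 1.57 and 1.35. Of 57 claudin and gap junction genes 6 rose, among them the epithelial claudin cldnb (2.62-fold), and 3 fell. In this list 2 rises were called without tacrine plus neomycin replicate 1 or 3 or control replicate 2 or 3, and 1 fall without tacrine plus neomycin replicate 1 or 3 or control replicate 1 or 3, while the authors' matrix gave 8 rises and 0 falls. The ciliogenesis factor foxj1a rose by 1.25, the Polycomb gene cbx7a by 2.23 and the linker histone gene h1-10 by 1.23. Among the largest rises, rd3, a regulator of guanylate cyclase in photoreceptors, and grcc10 each rose at 1 probe while their other probes differed by -0.40 for rd3 and by -0.23 and -2.35 for grcc10, none of them called.

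Genes that answer foreign compounds moved both ways. Of 36 aryl hydrocarbon receptor and drug metabolism genes 4 were higher and 2 lower, with 2 higher without tacrine plus neomycin replicate 1 or control replicate 3 and 1 without tacrine plus neomycin replicate 2. The receptor's targets cyp1a, tiparp and ahrra rose, cyp1a with levels of 2.84, 3.13 and 2.61 with both compounds, 2.25, 2.44 and 2.28 with neomycin and 2.06, 1.49 and 1.90 in controls (2.06-fold, adjusted p = 0.017), and the glucuronosyltransferase gene ugt5a1 rose 2.99-fold. Among cytochromes P450, cyp8b1.1, for a step of bile acid synthesis, and cyp27c1, for vitamin A2 synthesis, rose 2.12-fold and by 0.96. The falls were all in family 2, the enzymes that oxidise drugs and fatty acids: of 25 tested CYP2 genes, grouped after their values were seen, 6 were lower, none higher, and 20 had negative differences (median -0.33). The brightest probe of cyp2n13 lay at -0.42, -0.58 and 0.02 with both compounds, at 0.04, 0.72 and 0.45 with neomycin and at 1.25, 0.94 and 0.63 in controls, and that of cyp2k19 at -1.84, -2.17 and -1.66 with both compounds, at -1.92, -1.48 and -1.46 with neomycin and at 0.29, -0.66 and -0.80 in controls. For neither gene did the arrays with both compounds overlap the controls, and for cyp2k19 they overlapped those with neomycin. The other 4 (cyp2aa1, cyp2ad2, cyp2x10.2 and cyp2p9) fell by 1.04, 0.88, 1.21 and 0.63. None of the P450 falls was called without tacrine plus neomycin replicate 1 or replicate 2, 1 was called without control replicate 1 or 2, 2 without control replicate 3, and 3 without neomycin replicate 3.

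Calls were also compared across the probes of a gene. Of 326 genes with a lower call and 2 or more probes tested, 39 (12%) were lower at every probe and 256 at 1 probe, whereas of 331 such genes with a higher call 108 (32.6%) were higher at every probe and 183 at 1. The remaining probes had the sign of the call in 85.2% of cases for falls (median difference -0.42) and in 92.5% for rises (median 0.72). Of the 25 largest falls, 14 were called with each of the 9 arrays left out in turn, against 23 of the 25 largest rises.

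Falls at every probe were found for 4 of the 25 genes of largest fall. The gene faub, which encodes a ubiquitin-like protein fused to ribosomal protein S30, fell at all 3 probes, with levels of 0.07, -0.14 and -0.01 with both compounds, 0.80, 0.50 and 0.49 with neomycin and 2.21, 2.17 and 1.79 in controls (4.24-fold lower, adjusted p = 0.00039). Its 3 groups did not overlap, with neomycin between. All 4 probes of fam83fb fell, with -5.25, -5.42 and -5.71 with both compounds, -4.03, -3.71 and -3.71 with neomycin and -3.57, -3.25 and -3.31 in controls at the probe with the smallest p, which was well above background on 1 array with both compounds and all 3 controls (4.24-fold lower). The same held for the 3 probes of plekhs1.3, a pleckstrin homology domain gene, with -4.12, -3.80 and -4.52 with both compounds, -2.27, -2.3 and -2.49 with neomycin and -2.05, -1.22 and -2.26 in controls (4.94-fold lower). The mitochondrial carrier gene slc25a48 lay at -0.38, 0.05 and -0.09 with both compounds, at 1.78, 1.05 and 1.65 with neomycin and at 1.71, 1.44 and 1.43 in controls, where neomycin overlapped control. These 4 calls held with each array left out.

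Other large falls rested on 1 probe or on a part of the probes. The gap junction gene gjc4a.2 fell by at least 3.85-fold at a probe that stayed below that background limit on each array with both compounds (difference -3.0, adjusted p = 0.0033), while its other probe differed by 0.58 and was not called. The GTPase-activating protein gene stard8 lay at -2.80, -2.77 and -0.76 with both compounds, at 1.84, 1.91 and 1.06 with neomycin and at 0.64, 0.66 and 0.89 in controls, with a second probe lower by 2.25 and the third differing by -0.04. Replicate 3 with both compounds lay nearer the controls. The Mediator subunit gene med17 and the kinase gene stk17a, which is tied to apoptosis in mammals, fell by 1.98 and 1.94 at 1 probe each, but their brighter probes, with means of 1.58 and 2.62 with both compounds, differed by -0.12 and -0.14. For ddx21, a helicase of the nucleolus, 1 probe fell by 1.67 and the other 3 differed by -0.39, -0.37 and -0.38. For pts, whose enzyme makes the cofactor tetrahydrobiopterin, the called probe lay at -2.72, -2.34 and -2.74 with both compounds, -1.06, -0.85 and -0.67 with neomycin and 0.23, -1.32 and -1.09 in controls. Control replicate 1 stood above the other controls for pts, and likewise for stk17a, tmem79a, med17, atf7a and cxcl20.

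**Figure D3:**
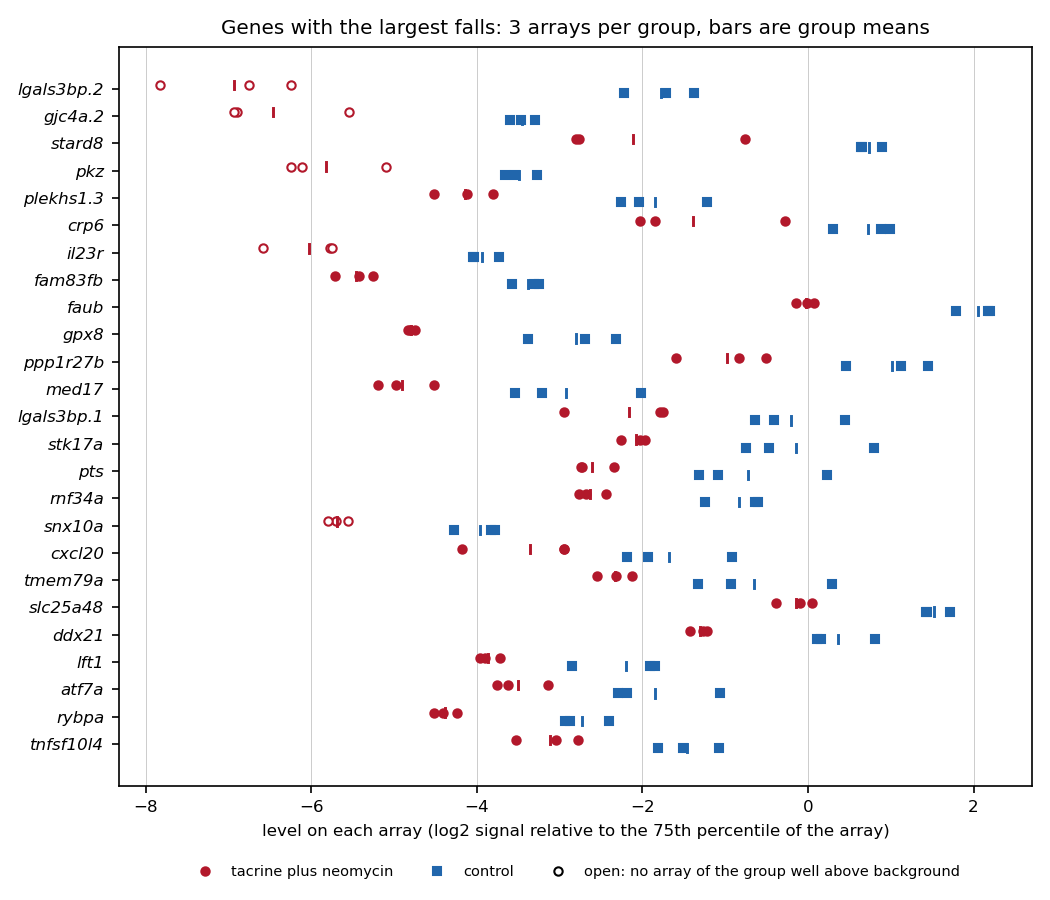
The 25 named genes with the largest falls, drawn as for the rises, with red circles for larvae given both compounds and blue squares for controls. The groups stand apart for all 25 genes, as the rule of choice required. Of these, lgals3bp.2, gjc4a.2, pkz, il23r and snx10a were not well above background with both compounds. For stk17a, pts and tmem79a 1 control lies above the other 2.

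Of genes measured by a single probe, gpx8, for a peroxidase of the endoplasmic reticulum, lay at -4.75, -4.83 and -4.81 with both compounds, at -3.44, -3.12 and -3.2 with neomycin and at -2.31, -3.38 and -2.70 in controls (4.0-fold lower). Its replicates with both compounds were nearly equal. The phosphatase subunit gene ppp1r27b was 3.97-fold lower, with -0.50, -1.59 and -0.83 with both compounds, 0.86, 0.80 and 0.56 with neomycin and 1.45, 1.13 and 0.46 in controls. The Nodal antagonist gene lft1 fell by 1.66. The Polycomb-associated gene rybpa fell at 2 of 3 probes and the ubiquitin ligase gene rnf34a at 2 of 3, the strongest by 1.66 and 1.80, and the endosomal gene snx10a at 2 of 3, by at least 2.56-fold at the strongest.

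The calls of 11 falls and 2 rises ended when 1 array was left out. Without tacrine plus neomycin replicate 1 the falls of lgals3bp.2, stard8, pkz, crp6, lgals3bp.1, stk17a, pts, cxcl20, tmem79a and atf7a and the rises of rd3 and ccl34a.3 were not called. Without replicate 2 of that group pkz, crp6, med17, lgals3bp.1, stk17a, cxcl20, tmem79a, atf7a and rd3 were not called, and without its replicate 3 med17, lgals3bp.1, stk17a, pts, cxcl20, tmem79a and rd3 were not. Omission of control replicate 1 or 2 ended pkz, crp6, lgals3bp.1 and cxcl20, and omission of control replicate 3 ended ccl34a.3, lgals3bp.2, pkz, lgals3bp.1, cxcl20 and tmem79a. The fall of cxcl20 was also lost without any 1 neomycin array, and that of lgals3bp.1 without neomycin replicate 3. The highest adjusted p over these omissions was 0.13, for cxcl20. With the slide as a block, pkz, cxcl20 and tmem79a had adjusted p values of 0.059, 0.079 and 0.058. Among genes named elsewhere, the calls of irf1a, tapbp.1, cebp1, nfe2l1a, f9a, f9b, ahsg2, wnt11f2, cxcr4a, cyp2p9, prss1, hsp90aa1.1, sqlea, mcl1a and bglap also ended with the block, at adjusted p values between 0.052 (tapbp.1) and 0.070 (ahsg2).

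The 3 tandem galectin-3-binding protein genes, secreted glycoproteins of innate immunity in mammals, each had a lower call. They were grouped after their values were seen. For lgals3bp.2 the probe with the smallest p lay at -7.82, -6.75 and -6.24 with both compounds, at -6.96, -2.71 and -5.45 with neomycin and at -1.72, -2.22 and -1.38 in controls, a fall of at least 12.4-fold. A second probe fell by 1.54, and the brightest differed by -1.08 and was not called. For lgals3bp.1 1 of 2 probes fell by 1.96 and for lgals3bp.3 1 of 2 by 0.74. Cross-hybridisation between these related genes was not tested. The acute phase gene crp6, of the C-reactive protein family, lay at -2.02, -1.85 and -0.28 with both compounds, at 0.44, 0.34 and 1.01 with neomycin and at 0.88, 0.99 and 0.30 in controls, so that replicate 3 with both compounds came close to the lowest control. The interleukin 23 receptor gene il23r fell by at least 2.76-fold.

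Ligands of the TNF superfamily, cytokines that include the death-inducing TRAIL group, fell in 4 of 8 tested genes and rose in none. They were grouped after their values were seen. The TRAIL gene tnfsf10 lay at -1.97, -1.64 and -1.84 with both compounds, at -0.81, -0.25 and -0.61 with neomycin and at -0.41, -0.42 and -0.40 in controls (difference -1.41, adjusted p = 0.0024). Its neomycin arrays lay near the controls. The related gene tnfsf10l4 fell by 1.65, tnfsf10l by 1.11 and tnfsf12 (TWEAK) by 1.12. For tnfa the levels were -6.21, -6.49 and -5.78 with both compounds, -3.35, -4.04 and -4.80 with neomycin and -5.45, -4.28 and -4.96 in controls, which was not called (adjusted p = 0.10), and tnfb differed by 0.04.

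Chemokines and their receptors, grouped after their values were seen, went both ways, with 4 higher and 4 lower of 26 tested. Those higher were ccl34a.4, ccl34a.3, cxcl18b and ccl35.2, and those lower were cxcl20 (by 1.68), ccl33.3 (0.93) and the receptor genes cxcr4a (0.63) and cxcr3.1 (at least 2.11-fold, not well above background with both compounds). The interferon and antiviral list had 3 lower and 1 higher of 22 tested (median -0.18, and -0.19, -0.34 and -0.18 by slide). The interferon regulatory factor genes irf10 and irf1a fell by 1.56 and 0.85 and the antigen-loading gene tapbp.1 by 0.65, while irf7 rose by 1.07. With the slide as a block 1 of these falls was called, that of irf10, and none without any 1 array with both compounds or without control replicate 2. Without neomycin replicate 2 or 3 or control replicate 3 the list had 1 lower call, and irf7 was not called without any 1 array with both compounds or control replicate 3. The fish antiviral kinase gene pkz fell at 1 of 2 probes, by at least 3.61-fold, and its brighter probe differed by -0.65. Leukocyte markers lyz, mpx and mpeg1.1 differed by -0.84, -0.72 and -0.18, none of them called, and of 30 leukocyte genes cebpa was higher and cebp1 lower. Whether fewer cells of a type or less RNA per cell gave such falls cannot be told apart in RNA of whole larvae.

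Exocrine pancreas enzymes had the largest share of falls among the 52 lists. Of 30 tested, 8 (26.7%) were lower and none higher, 28 had negative differences and the median was -0.64. The elastase gene ela2l lay at 6.49, 6.29 and 6.44 with both compounds and at 7.51, 7.12 and 7.07 in controls, and the chymotrypsinogen gene ctrb.2 at 6.61, 6.23 and 6.2 with both compounds and at 7.12, 7.13 and 7.16 in controls, each without overlap. Trypsin (prss1) and elastase 2 (ela2) fell by 0.63 and 0.71, the lipase gene cel.2 by 0.95 and the astacin protease genes c6ast4 and c6ast3 by 0.76 and 1.12. The acinar transcription factor gene ptf1a differed by -0.11 (adjusted p = 0.82). The median was -0.82, -0.78 and -0.33 on the 3 slides. Relative to all genes it stayed negative with median scaling, quantile normalization and the authors' matrix (-0.59 to -0.46), but it turned to 0.24 with normexp correction and 75th percentile scaling. The number of lower members was 0 without tacrine plus neomycin replicate 2, 1 without control replicate 3, 2 without tacrine plus neomycin replicate 1 or 3, control replicate 1 or 2 or neomycin replicate 3, and 6 and 8 without the other neomycin arrays. It was 3 with quantile normalization, with the authors' matrix and with normexp correction and quantile normalization, 5 with median scaling or the 6 arrays alone, 2 with no filter, 0 with normexp correction and 75th percentile scaling, 7 with the slide as a block and 14 with a variance trend.

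Very bright genes had a negative median difference. The 282 genes with a mean level of 6 or more had a median difference of -0.34 (-0.67, -0.25 and -0.15 on slides 1, 2 and 3), with 7 called lower and none higher, whereas the 545 genes between 4 and 6 had -0.08 and the 1773 between 2 and 4 had -0.02. Of the pancreas list 10 of 30 members had a level of 6 or more. Its 16 members at 4 or more had a median of -0.59 and the dimmer ones -0.69. Cytosolic ribosomal proteins, of which 73 of 81 had a level of 6 or more, had a median of -0.41 (-0.76, -0.25 and -0.19 by slide), with 80 negative differences but 3 lower calls, among them faub and rpl14 (by 0.98), and 1 without tacrine plus neomycin replicate 1. Their median relative to all genes was -0.37, and it was -0.02 after quantile normalization and 0.49 after normexp correction with 75th percentile scaling. The lens list likewise had a median of -0.40 with 53 of 59 differences negative and no limma call in either direction. At an unadjusted limma p under 0.05 it had 0 higher and 18 lower members. Other settings gave up to 2 lower calls, and 1 member was called higher without neomycin replicate 3. Relative to all genes the lens median turned to 0.42 with normexp correction and 75th percentile scaling. The part of brightness in the pancreas result was not tested beyond these values.

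**Figure D4:**
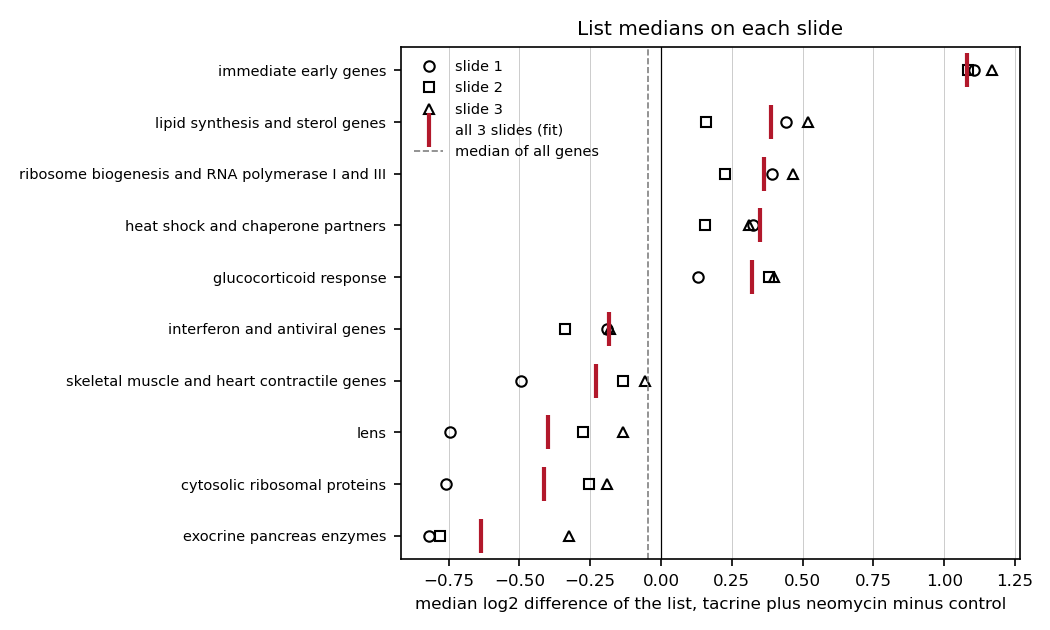
The median log2 difference, tacrine plus neomycin minus control, of 10 gene lists on each slide (open symbols) and in the fit over all arrays (red bars), with the median of all genes as a dashed line. Immediate early genes lie at 1.11, 1.08 and 1.17, and for lens and ribosomal proteins slide 1 lies farthest to the left, at -0.75 and -0.76.

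Genes of nutrient sensing were called in both directions, whereas the genes of protein folding in the endoplasmic reticulum called below were lower. Of 44 genes of the integrated stress and unfolded protein responses, 5 were higher (cebpb, slc7a3a, trib3, sesn2 and mthfd2) and 4 lower. Those lower were calr, for the calcium-binding chaperone calreticulin, pdia3, for its disulfide isomerase partner, and the sestrin genes sesn1 and sesn3. The list had 2 lower calls without tacrine plus neomycin replicate 1 or 3. Calreticulin lay at 0.15, 0.47 and -0.15 with both compounds, at 0.62, 0.76 and 0.40 with neomycin and at 1.17, 1.31 and 1.08 in controls (2.04-fold lower), and pdia3 at 1.14, 1.45 and 1.2 with both compounds, at 1.74, 1.56 and 1.80 with neomycin and at 2.04, 2.27 and 2.36 in controls. For calr 2 of 4 probes fell, the controls lay highest, and the arrays with both compounds overlapped those with neomycin, whereas the 3 groups of pdia3 did not overlap. Of 14 calreticulin, PDIA and canopy genes, grouped after their values were seen, cnpy3 fell too, by 1.3. Sestrins, which restrain the growth kinase mTORC1, were divided: sesn1 fell to 3.73, 3.29 and 3.36 with both compounds, against 4.29, 4.53 and 4.62 in controls, and sesn3 to 1.99, 2.04 and 1.94, against 2.70, 2.95 and 2.94, whereas sesn2 lay at -0.68, -0.97 and -0.28 with both compounds and at -1.95, -1.85 and -1.77 in controls. The stress gene trib3 rose 3.02-fold, and ypel3, a growth suppressor in mammals, fell by 1.34.

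Further falls were found at genes of muscle, membrane receptors and lipids. The muscle ubiquitin ligase gene trim63a, which marks sarcomere proteins for degradation in mammals, lay at 1.61, 1.35 and 1.88 with both compounds, at 2.56, 1.94 and 2.58 with neomycin and at 3.09, 2.85 and 2.54 in controls (2.32-fold lower). The fall of trim63a was the 1 lower call among the 72 contractile genes (1.39%, against 2.29% of all genes). That call ended with 4 of the 9 arrays left out singly. Of 34 TRIM and FTR genes 5 were lower and 2 higher (trim55b and ftr86), with trim109 lower by 1.44. Of 14 ASB ubiquitin ligase adaptors asb10, asb15b and asb5a were lower by 0.93, 0.79 and 0.74. These families, like the ATP-gated channels and acid ceramidases below, were grouped after their values were seen. Of 65 G protein-coupled receptors 4 were lower, among them the adrenergic receptor genes adra1bb (by 0.62) and adrb3a (0.67), and 2 higher, adra2b and f2rl1.2. Between 0 and 2 of the receptors were called lower without any 1 array of either group or without neomycin replicate 3. In adra2b the controls spread widely, at -3.33, -0.62 and -2.76, against -0.09, 0.55 and 0.18 with both compounds. Of the ATP-gated channels p2rx1 and p2rx8 fell by 0.95 and 0.76 and p2rx7, well above background on 1 of 3 controls, rose by 1.18. Both tested acid ceramidase genes, asah1a and asah1b, fell by 0.68 and 0.61. They were the 2 lower calls among 81 lysosome and autophagy genes (2.47%, near the 2.29% of all genes), of which 1 was higher. With arrays left out singly, the call of asah1a ended with 8 of the omissions and that of asah1b with 7. The calls of p2rx1, p2rx8 and p2rx7 ended with 5, 6 and 8 of them. Of 28 vessel genes (median 0.08) ephb4a and aplnrb fell, by 0.72 and 0.64. The vessel list had 0 lower calls without tacrine plus neomycin replicate 3 or control replicate 2 or 3. It had 1 without tacrine plus neomycin replicate 2, neomycin replicate 3 or control replicate 1. Of 41 liver genes f9a, vtna and ahsg2 fell by 1.06, 0.69 and 1.19 while f3b and f9b rose by 1.57 and 1.14. The liver list had 1 lower call with the slide as a block or without control replicate 3, and none without tacrine plus neomycin replicate 1 or 2, neomycin replicate 3 or control replicate 1 or 2.

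Deep falls were also found at 3 genes with placeholder names, chosen here after their values were seen. The gene si:ch211-121a2.2 lay at -4.70, -5.33 and -4.79 with both compounds, at -4.96, -5.48 and -5.15 with neomycin and at 4.26, 3.91 and 1.38 in controls. The arrays with both compounds overlapped those with neomycin, and 2 of the 3 were well above background. Both probes of zgc:152830 fell, by 4.22 and 3.29, with -5.65, -4.71 and -5.41 with both compounds, -2.27, -1.65 and -1.71 with neomycin and -0.92, -1.57 and -0.59 in controls at the first. For si:dkey-58f10.7 the probes disagreed, with falls of at least 4.17-fold (not well above background with both compounds) and of 3.2 on the log2 scale at 2 dim probes and a difference of 0.07 at the brightest, whose mean level was 4.1 with both compounds and 4.03 in controls. At anxa3a, an annexin gene, only the arrays with neomycin alone were low. It lay at -0.23, -1.32 and -0.99 with both compounds, at -7.26, -6.61 and -7.22 with neomycin and at -0.45, -0.76 and -0.83 in controls. Here the arrays with both compounds overlapped the controls.

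Tacrine's target enzyme was not called at the transcript level. The acetylcholinesterase gene ache lay at -0.17, -0.14 and -0.26 with both compounds, at -0.32, -0.29 and -0.05 with neomycin and at -0.44, -0.38 and -0.06 in controls, a difference of 0.10 ± 0.15 (adjusted p = 0.74). Of 17 genes of the cholinergic synapse 1 was called, rapsn, which clusters acetylcholine receptors at the neuromuscular junction. It lay at -3.88, -4.07 and -4.37 with both compounds, at -2.87, -3.12 and -3.19 with neomycin and at -2.97, -3.27 and -3.19 in controls (1.95-fold lower). Of 22 tested hair cell genes 1 was called, the calcium buffer gene pvalb8, at 4.24, 4.09 and 4.25 with both compounds, 4.28, 4.33 and 4.11 with neomycin and 5.42, 4.88 and 4.74 in controls. The 6 arrays of larvae given neomycin, with or without tacrine, lay below every control. The call of pvalb8 ended with 7 of the 9 single omissions. This 1 lower call was 4.5% of the hair cell list, against 2.29% of all genes. The hair cell marker s100t differed by -0.87 (adjusted p = 0.18), the hair cell factor atoh1a by 0.18 (adjusted p = 0.56), and pou4f3 was not tested because it was too dim. Of 33 tested markers of 12 tissues, all well above background on the 6 arrays, 3 were lower (prss1, ela2 and pvalb8) and none higher.

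**Figure D5:**
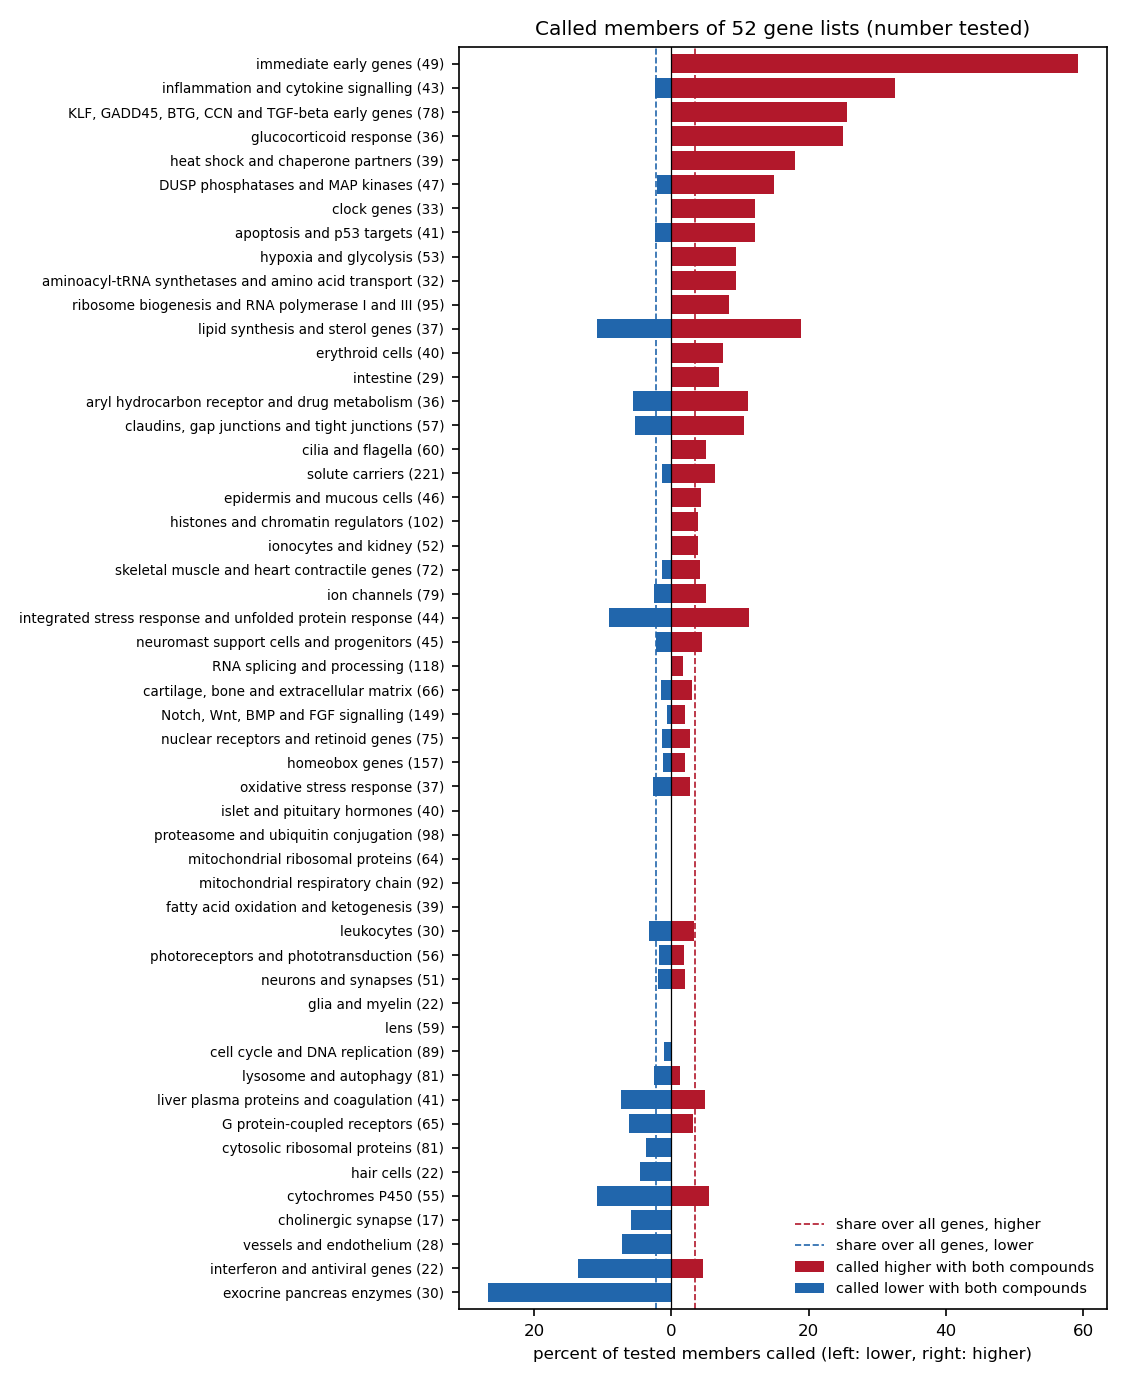
Percent of the tested members of 52 gene lists called higher (red, to the right) and called lower (blue, to the left) in tacrine plus neomycin against control larvae, with the number tested in brackets and dashed lines for the shares over all genes (3.37% higher, 2.29% lower). Immediate early genes reach 59.2% to the right and exocrine pancreas enzymes 26.7% to the left.

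In several lists limma called no member. For the mitochondrial respiratory chain 92 genes were tested (median -0.05), with 2 higher and 1 lower at an unadjusted p under 0.05, and for the proteasome and ubiquitin conjugation 98 (median 0.02), with 6 and 6. Mitochondrial ribosomal proteins (64 tested, median 0.02) had 2 higher and 0 lower at that level, fatty acid oxidation and ketogenesis (39, median -0.09) 2 and 3, glia and myelin (22) 1 and 2, and islet and pituitary hormones (40) 7 and 3. Of 89 cell cycle genes pold2, a DNA polymerase subunit, fell by 0.98, and of 51 neuronal genes bdnf rose by 0.63 and the glutamate receptor gene grin1a fell by 0.71. The neuronal shares, 1.96% in each direction, lay below those over all genes (3.37% higher, 2.29% lower). The call of bdnf ended with each of the 9 single omissions, that of grin1a with 8 and that of pold2 with 4. Of 157 homeobox genes 3 rose and 2 fell, with 12 higher and 22 lower at an unadjusted limma p under 0.05. Of 43 tested HOX genes, grouped after their values were seen, 32 had negative differences (median -0.22). By the brightest probe 1 of them was called lower and 0 higher, and by any probe 6 and 1. Of 149 genes of Notch, Wnt, BMP and FGF signalling 3 rose and 1, wnt11f2, fell by 1.3. With 3 arrays per group the median standard error was 0.20. Simulated differences of 1 were called at 42% of changed probes and differences of 2 at 93%. The simulation changed far fewer probes than were called in the data, which makes its adjusted threshold stricter. These shares thus do not give the share of differences missed here, and genes without a call can still differ.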

How the data were processed

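The authors deposited 1 scanner file per array with intensity values that are linear, per the file headers. These are a processed signal, background-corrected by Feature Extraction (version 10.1.1.1 per the file headers, 8.0 per the submitters' processing notes), median spot and background signals, and quality flags (0 or 1, another unit). The deposited value table holds the authors' log2 values for 25265 probes, with column medians between 7.107 and 7.116 and a common lowest value of 5.658. Each column matched its own array best, its normalization is not given in the sources used here, and it was used as an alternative. Spots of 1 probe were averaged, and outlier spots left out. Of 43603 probes, 31671 well above background on at least 3 of 9 arrays were tested and 11932 were not. Named probes number 25173 (12900 genes, through RefSeq accessions), and 18430 have no name. No sequences or coordinates are given.

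All 9 arrays entered 1 limma 3.58.1 fit in R 4.3.3 (lmFit, eBayes, two-sided, 6 residual and 3.12 prior degrees of freedom), and adjusted p values are Benjamini-Hochberg over all probes. A gene not well above background in 1 group has a bound: the bright mean over the higher of the dim signal and the lowest signal well above background. On simulated data 4 calls were false. The members and lists were chosen with earlier results of these data known. Named are the 25 largest rises and falls, each by the probe with the smallest p. They were taken from called probes whose groups do not overlap, that are well above background throughout 1 group and have no placeholder symbol. Also named are up to 4 members of each of 52 lists in each direction (brightest probe) and 10 fixed genes. Further list and family members were named after their values were seen. Families counted apart from the 52 lists were also put together after their values were seen. These include the FOS, JUN and JDP2, galectin-3-binding, chemokine, TRIM and FTR, ASB, P2X, acid ceramidase and sestrin families. Alternatives changed background correction, scaling, filter, arrays, weights, variance trend and block. Normexp used the median spot signal, as the planned mean signal is not among the columns used.

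The slide ran with the replicate number. Same-numbered arrays of both groups had deviations correlated at 0.116, 0.188 and 0.097, not above 0.1 in every pair, so the slide entered as a block in an alternative only. Arrays of these groups with unlike numbers all had negative correlations, between -0.123 and -0.009. Deviations from a group mean cancel within the group, so positive values at like numbers bring negative ones at unlike numbers. The negative values are thus no separate sign of pairing. The number of arrays limits precision. Some genes of the counts are not reported by name here.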

Additional observations from a re-analysis of the deposited data

How the results depend on the processing

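With 1 array left out, between 455 and 1007 probes were called higher and between 294 and 840 lower. Larger moves were 360 higher and 167 lower without the 3 arrays of slide 1 (chosen after seeing the data), 480 lower with the 6 arrays of both groups alone, 1515 higher and 1493 lower with array weights, 564 lower with median scaling, 384 lower with normexp correction and quantile normalization, and 59 higher and 0 lower with normexp correction and 75th percentile scaling. In this limma fit 1638 probes were higher and 10533 lower at an unadjusted p under 0.05, and the median of all probes was -0.41. Quantile normalization gave 1136 higher and 757 lower, the authors' matrix 1120 and 777, no filter 732 and 645, a variance trend 1170 and 1018 and a filter on 3 arrays of a group 1144 and 978. The normexp setting with 75th percentile scaling adds a constant before arrays of unequal brightness are scaled. Whether this gave the shift of that setting was not tested, nor was the cause of the other shifts. With the slide as a replicate block, 1204 probes were higher and 1087 lower, 1665 of the 1875 calls remained and 210 were lost. Same-numbered arrays correlated above 0.1 in 2 of 3 pairs.

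In that normexp setting signs turned for nr4a3 (-0.60), loxl2a (-0.57 and -0.35), grcc10 (-0.65), fosl1a (-0.62), hspa1b (-0.092), ccl34a.3 (-0.58), bhlhe41 (-0.095), sesn1 (0.087), sesn3 (0.0051), per1b (-0.49), nfil3-6 (-0.32), mafk (-0.20), ugt5a1 (-0.19), ahrra (-0.50), egln3 (-0.013), f3b (-0.067), f9b (-0.24), vtna (0.21), ctrb.2 (0.096), c6ast4 (0.29), cel.2 (0.19), pvalb8 (0.34), bco1l (-0.39), gata1a (-0.45), lrp2a (-0.43), aplnrb (0.0021), dhx37 (-0.31), dhx16 (-0.53), srsf3a (-0.040), slc1a4 (-0.31), six9 (-0.86), nr1h5 (-0.13), dusp4 (-0.80), kcnk1a (-0.076), kcne4 (-0.50), p2rx7 (-0.77), f2rl1.2 (-0.11), slc25a25b (-0.062), atoh1a (-0.84) and il1b (-0.74). For hmox1a, at 0.00, the sign turned with normexp and quantile normalization (-0.016), quantile normalization (-0.016), the authors' matrix (-0.013) and without tacrine plus neomycin replicate 1 (-0.12), control replicate 2 (-0.018) or control replicate 3 (-0.13, with 0.16 as the highest value over the omissions), and for anxa3a without tacrine plus neomycin replicate 2 (0.070, with -0.48 as the lowest value over the omissions). Of 197 called probes of named genes, 194 stayed called with array weights, 187 with quantile normalization, 177 with the block and 76 without slide 1. Of 157 called list genes 54 stayed called whichever array was left out. Signal over background limits dim probes: 11932 were not tested.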

Other observations

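Of 41 apoptosis and p53 genes 5 were higher and 1 lower, with 8 higher and 6 lower at an unadjusted limma p under 0.05. The largest rise and the called fall of this list were those of sesn2 and sesn1, given above with the stress responses. The BCL2 family gene bcl2l1 lay at 1.38, 0.91 and 1.39 with both compounds, at 0.84, 0.69 and 0.39 with neomycin and at 0.17, -0.02 and 0.05 in controls, a difference of 1.16. Its 3 groups did not overlap. The caspase inhibitor gene xiap rose by 0.83 and mcl1a by 0.70, while plk3, a stress kinase gene, rose by 0.76. Of 53 hypoxia and glycolysis genes 5 were higher and none lower, among them the hexokinase gene hk2 (by 1.01) and the lactate carrier gene slc16a3b (0.96). The list also holds igfbp1a, and its median was 0.01. Without tacrine plus neomycin replicate 1 or 3 it had 1 higher call, without that group's replicate 2 or control replicate 2 or 3 it had 2, and without control replicate 1 it had 3. The call of hk2 ended with 4 of the 9 single omissions and that of slc16a3b with 5. In the apoptosis list 2 or 3 were higher without tacrine plus neomycin replicate 1 or 3, neomycin replicate 3 or any 1 control.

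The bile acid carrier gene slc10a2 and the alkaline phosphatase gene alpi.2 rose by 1.19 and 1.3 among 29 intestinal genes. The potassium channel genes kcnk1a and kcnk5b rose by 1.47 and 1.15. The connexin genes gja12.1 and gja13.1 rose by 1.24 and 1.23, and gja2 fell by 0.75. The bone matrix gene bglap lay at -0.10, 0.12 and 0.09 with both compounds, at 1.13, 1.07 and 1.46 with neomycin and at 2.26, 0.77 and 1.1 in controls, where control replicate 1 stood apart (adjusted p = 0.049).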
